A study of Mus musculus with 4 samples.

Results

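The binding of a mouse antibody against cyclobutane pyrimidine dimers (CPD) to designed DNA probes was measured on 2 of the 4 arrays of the series, 1 irradiated (CPD UV array) and 1 not irradiated (CPD Non-UV array). They were chosen by the antibody and the array condition in the labels, and all 5480 distinct library sequences were read on both. The same antibody at a dilution of 1:400 and an Alexa label were used on both arrays. Each condition held 1 array, so no difference between irradiated and non-irradiated DNA has a replicate check, and no p-value was computed. The labels give mouse as the organism, while the probes are synthetic DNA. The UV dose and the gain of the scanner were not stated, and a fold between the arrays includes any difference in gain.

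UV light joins 2 neighbouring pyrimidines of the same strand, T or C, through a ring between their bases, which is the CPD. It forms most readily at TT, and also at TC, CT and CC. An antibody against CPD binds DNA that carries the lesion, and its signal on a probe reflects both how often the lesion forms there and how well the antibody sees it, which an array cannot tell apart.

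In the probes pyrimidines and purines alternated along nearly the whole length, so that dipyrimidines stood only at a few places. A pair of neighbouring purines on the listed strand is a dipyrimidine on the opposite strand, and both were counted. The 3 backbones are named for MITF, TBP and p53, all of them transcription factors. In 21 libraries 4 neighbouring bases ran through 256 combinations, and in 6 sets of 125 probes dipyrimidines were placed at up to 3 positions. No probe held more than 5 dipyrimidines, and all lay within the first 30 bases. Since ends are fixed, length sets whether the count is odd or even: the 59-base probes held 1, 3 or 5 and the 60-base probes 0, 2 or 4. The 160 sequences without a dipyrimidine were the reference, and all had 60 bases.

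These probes show the design and the main contrasts. Each line gives the first 30 bases of the listed strand, 5′ to 3′, from the deposited files, with every dipyrimidine (or purine pair that faces one) in capitals. The first line is a reference probe on the MITF backbone, and the next 3 hold TT at 1, 2 and 3 of its positions.
MITF_Ex_ebox_60_GTAC: gtatgtacgcacgtgcgtacatacgcgcac
MITF_P6_N&P12_TT&P18_N: gtatgtacgcaTTgtgcgtacatacgcaca
MITF_P6_N&P12_TT&P18_TT: gtatgtacgcaTTgtgcgTTacatacgcac
MITF_P6_TT&P12_TT&P18_TT: gtatgTTacgcaTTgtgcgTTacacgcaca
The next 4 differ only in the type of a single dipyrimidine.
TBP_MUT_59_TGTT: gtacgtacgtgcatatatgTTgtacgcaca
TBP_MUT_59_TGTC: gtacgtacgtgcatatatgTCgtacgcaca
TBP_MUT_59_TGCT: gtacgtacgtgcatatatgCTgtacgcaca
TBP_MUT_59_TGCC: gtacgtacgtgcatatatgCCgtacgcaca
The next 8 differ only in a run of 3 pyrimidines at the same place.
TBP_E60_GTTT: gtacgtacgtatatatacgTTTgtacgcac
TBP_E60_GCTT: gtacgtacgtatatatacgCTTgtacgcac
TBP_60_CGTT: gtacgtacgtatatatacgTTCgtacgcac
TBP_60_CGCT: gtacgtacgtatatatacgCTCgtacgcac
TBP_E60_GTCT: gtacgtacgtatatatacgTCTgtacgcac
TBP_E60_GCCT: gtacgtacgtatatatacgCCTgtacgcac
TBP_60_CGTC: gtacgtacgtatatatacgTCCgtacgcac
TBP_60_CGCC: gtacgtacgtatatatacgCCCgtacgcac
The last 4 are the probes with the highest non-UV intensity and a neighbour of theirs that differs in the last varied base.
MITF_ebox_60_GTAA: gtatgtacgcacgtGGtAAcatacgcgcac
MITF_ebox_60_GTCA: gtatgtacgcacgtGGTCacatacgcgcac
MITF_ebox_60_GTGA: gtatgtacgcacgtGGtGAcatacgcgcac
MITF_ebox_60_GTAC: gtatgtacgcacgtGGtaCCatacgcgcac

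Every one of the 5480 sequences was brighter on the UV array. Reference sequences had a median intensity of 2340.5 on the UV array (972.5 to 4441) and 28 on the non-UV array (25.5 to 36), and the ranges did not overlap. Their median UV minus non-UV difference was 6.37 on the log2 scale, so most of the distance between the arrays was shared by DNA without any dipyrimidine. Spots with no listed name or sequence, 397 in number, had a median of 2903 on the UV array and 28 on the non-UV array, close to the 2300.5 and 28 of the 2140 reference spots. From here on a centred difference is the log2 UV minus non-UV difference of a sequence less 6.37, so that 0 is the level of the reference and 1 is 2-fold above it. The reference itself spread with an SD of 0.416 over sequences. With the deposited adjustment for local brightness this SD was 0.301, and the median SD of replicate spots on the UV array was 0.299 in place of 0.61, so adjusted values are given beside the main ones where they bear on a statement.

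Of all sequences, 2171 lay at least 1 above the reference, or 39.6%, and 21 lay at least 1 below it, or 0.383%. With adjusted intensity 2180 lay above, or 39.8%, and 3 below, or 0.0547%. TT content set the first group apart. A centred difference of at least 1 was found in 334 of 3054 sequences without TT, in 1181 of 1734 with 1 TT step, in 530 of 566 with 2, in 104 of 104 with 3 and in 22 of 22 with 4. The median centred difference over these classes was 0.33, 1.20, 1.48, 1.70 and 1.95. The other types could not be read as a count alone. Among sequences without TT the median went from 0.10 with 1 dipyrimidine to 0.33, 0.48, 0.51 and 0.61 with 2, 3, 4 and 5, whereas sequences with at least 1 TT had 1.25, 1.24, 1.38, 1.25 and 1.36 at the same counts. The latter classes mix TT with the other types, so their medians by count are not those of added TT steps.

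Single dipyrimidines put the 4 types in order. The 154 sequences with a single TT had a median centred difference of 1.25 (quartiles 1.01 and 1.46), and the lowest of them was still above 0, at 0.13. Sequences with a single TC, 122 in number, had 0.64 (0.17 and 1.01), the 170 with CT 0.15 (-0.11 and 0.45) and the 138 with CC -0.15 (-0.33 and 0.05). At least 1 above the reference were 116 of the TT sequences, 31 of TC, 1 of CT and 0 of CC, against 39.6% of all sequences. With adjusted intensity these counts were 131, 4, 0 and 0, so the TC count rests on the unadjusted column. Sequences with CC as their sole type had medians just under the pooled reference however often it occurred, at -0.15, -0.18, -0.06 and -0.14 for 1 to 4 steps. The reference and the single types mix the backbones in unlike shares. Single CC had -0.17 on MITF (70 sequences), -0.14 on TBP (62) and 0.23 on p53 (6). The references of these backbones had -0.01, -0.27 and 0.27. On TBP single CC thus lay above its own reference, also after adjustment (-0.09 and -0.19). These CC probes had 59 bases and the reference 60, and in a regression with length 59 bases went with 0.10 more. Whether length takes part in the gap was not tested. Against the same TBP backbone without a dipyrimidine, placing 1 CC gave -1.15 to -0.04, and -0.40 to 0.04 adjusted, so CC was not raised there.

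The printed set of 4 shows this order at 1 place. TBP_MUT_59_TGTT had UV intensities of 3693 to 9391 over its 10 spots, with a median of 6810. The TC probe had 1124 to 5601 with a median of 3704, the CT probe 902 to 4522 with 2738.5, and the CC probe 641 to 3469 with 2150. Spots of neighbouring types overlapped, and of the other 3 only the TT probe lay wholly above the highest spot of the CC probe. Across 98 such sets, in which type alone changed, TT was highest in 87 and CC lowest in 70, and all 4 followed TT, TC, CT, CC in 45. With adjusted intensity the counts were 97, 92 and 77 of 98.

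Changes of a single base gave the same picture with everything else held fixed. Replacing CT by TT raised the difference in 112 of 112 pairs, by a median of 1.09 (0.17 to 1.96). Replacing TC by TT raised it in 75 of 88 pairs by a median of 0.55, and adjusted in 87 of 88 by 0.73. Replacing CC by TC raised it in 73 of 80 by 0.73, and CC by CT in 81 of 104 by 0.29. In 288 further pairs the changed base lay outside the dipyrimidine and its flanks. For these the median size of a single change, in either direction, was 0.241, or 0.143 adjusted. With adjusted intensity the CT over CC change was 0.37, higher in 97 of 104 pairs.

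For TT and TC the base before the dipyrimidine went with more of the signal than the base after it. With A instead of G before it, a single TT was higher in 47 of 48 pairs by a median of 0.51 and a single TC in 26 of 32 by 0.62. For TC the adjusted count was 32 of 32, with a median of 0.50. For CT the change was 0.27, higher in 31 of 48, and for CC 0.06, higher in 20 of 32. Adjusted, the CC change was 0.16, higher in 26 of 32, and CT was higher in 39 of 48. On the 3′ side A in place of G changed TT by 0.10 in 28 pairs, TC by 0.13 in 28, CT by 0.12 in 36 and CC by -0.04 in 36. The pairs were higher in 19, 18, 22 and 16. After adjustment the CT change was 0.17 for the base before and 0.14 for the base after, so nearly equal. TC differed more between flanks than CT did. ATCA had a median centred difference of 1.03 and ATCG 0.84, against 0.20 for GTCA and 0.05 for GTCG. In the same flanks CT had 0.28, 0.11, 0.05 and 0.02, so the TC medians stood apart from CT after A and near it after G. After adjustment ATCA had 0.75 and ATCG 0.72, against 0.42 for ACTA and 0.28 for ACTG and 1.44 for ATTA and 1.42 for ATTG, so TC was then nearer to CT than to TT in both. Between G flanks on both sides TC was above CT in 9 of 18 sets of 4, and between A flanks in 22 of 26. The TT medians were above the reference in all 4 contexts, with 1.44 for ATTA, 1.33 for ATTG, 1.13 for GTTA and 0.94 for GTTG. CC lay between -0.31 (GCCA) and -0.02 (ACCA).

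Runs of 3 pyrimidines hold 2 overlapping steps and so show steps with a pyrimidine flank. All 8 runs were present at 46 places with every other base equal, all on 60-base probes like the reference. Over these places the median centred difference was 1.46 for TTT, 1.39 for CTT, 0.96 for TTC, 0.85 for CTC, 0.51 for TCT, 0.13 for CCT, 0.09 for TCC and -0.18 for CCC. Runs of the same bases in another order differed for CTC and TCC and for CTT and TTC. CCT and TCC had 0.13 and 0.09, and 0.17 for both after adjustment, but this went with the base before the run. Over all sequences with such a run, not matched by place, TCC had 0.51 and CCT 0.11 after A (adjusted 0.43 and 0.12). After G both had -0.01. CTC had 0.91 after A and 0.81 after G, so its gap to TCC was smaller after A. CTC exceeded TCC, which holds the same bases, at 45 of 46 places by a median of 0.67 (quartiles 0.41 and 1.05), with 45 of 46 also after adjustment. TCT exceeded TCC at 38 of 46 by 0.48. TCC exceeded CCC at 34 of 46 by 0.32. CTT exceeded TTC at 44 of 46 places by 0.45, whereas TTT and CTT differed by 0.08, with TTT higher at 28. CTC and TCC share the TC step, which is last in CTC and first in TCC, and differ in the other step, CT in one and CC in the other. CTT and TTC likewise hold CT or TC beside the TT.

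The printed runs follow this order on a TBP backbone. The spots of TTT ran from 6623 to 11563 on the UV array with a median of 8360.5, and those of CTT from 5086 to 9823 with 7554.5. For CTC the lowest, median and highest spot were 1201, 4630 and 6498, and for TCC 604, 1981.5 and 3270. The TCC probe thus sat at the level of the CCC probe, at 545, 1877 and 4170, while the TTT spots lay wholly above both. The non-UV medians of all 8 lay between 27 and 34.5. A regression that lets TT, TC, CT and CC add up gave effects per step of 0.58, 0.24, 0.09 and -0.12. Its intercept was 6.63, above the reference median of 6.37, and this offset is part of every value it predicts. It placed CTC and TCT at the same 0.59, while the 98 CTC sequences lay 0.30 above that value and the 102 TCC sequences 0.21 below theirs of 0.38. CTT lay 0.35 above its value and CCC 0.20 below. The shortfalls of TCC and CCC include the offset of the intercept, so they cannot be read as particular to these runs. The regression accounted for an R squared of 0.57 of the difference, and 0.67 adjusted.

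TT gave more signal on the listed strand than on the opposite strand. Single TT had a median centred difference of 1.34 over 81 listed sequences and 1.09 over 73 opposite ones. At least 1 above the reference were 75 listed and 41 opposite ones, where the share of all sequences was 39.6%. After adjustment these counts were 79 and 52, with 39.8% of all sequences. The gap was present in each flank, from 0.31 for ATTA to 0.86 for GTTG, and from 0.25 to 0.63 after adjustment. CT was higher on the listed strand in each flank too, by 0.06 to 0.35. TC and CC showed no common direction, with gaps of -0.25 to 0.06 for TC and -0.09 to 0.02 for CC. The non-UV array carried part of the same contrast, with a median of 34.5 for listed and 30 for opposite single TT, which lessens the gap in the difference. Positions of the dipyrimidine were not balanced between the strands, and whether they take part in the gap was not tested.

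The longest tracts, runs of 5 T, showed the contrast in the UV intensity. In 6 sequences the run was on the listed strand, with UV intensities of 13796.5 to 22181 (median 17721.5), and in 10 on the opposite strand, with 7449 to 13279.5 (median 10531.75), so the strands did not overlap. Non-UV intensities did not overlap either, at 37.5 to 69 and 27 to 36.5. Taken as UV minus non-UV, the strands overlapped, with centred differences of 1.94 to 2.15 and 1.58 to 2.23. Over all sequences, the median centred difference was 1.25 with a longest T run of 2, 1.45 with 3, 1.67 with 4 and 1.97 with 5. Longer runs also hold more TT steps. Among sequences with TT as their sole type, 2 separate steps gave 1.48 (69 sequences) and a run of 3 T 1.30 (74 sequences), while 3 separate steps gave 1.87 (6) and a run of 4 T 1.81 (22). With 4 steps the order was the other way, with 1.46 when the longest run was 4 T (4 sequences) and 1.91 when it was 5 T (8). A longest run of 3 T gave 1.81 with 3 steps (16 sequences) and 1.31 with 4 (2). By centred difference, tract length at equal steps thus had no common direction, and these classes were not matched by strand or backbone. The reversed order with 4 steps was not seen on the UV array alone. There, in log2 over the reference, a longest run of 4 T had 2.30 and 5 T 2.12, with non-UV medians of 55.25 and 31.25. With 2 steps the UV values were 1.81 when separate and 1.53 as 3 T. With 3 steps they were 2.27 when separate, 2.59 with 3 T and 2.25 as 4 T. The median was 0.56, 0.29, 0.03 and -0.10 for longest C runs of 2, 3, 4 and 5. These classes also hold sequences with TT. Sequences with CC as their sole type showed no such fall with more steps in unadjusted intensity. After adjustment their medians went from -0.08 with 1 step to -0.17, -0.18 and -0.21 with 2, 3 and 4. The adjusted medians for C runs of 2 to 5 were 0.54, 0.28, -0.05 and -0.12.

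In probes with TT at 1, 2 or 3 spaced positions the median rose with the number of TT, most of it with the first. Against the same backbone without a dipyrimidine, 1 TT added a median of 1.29 (0.60 to 1.75 over 18 probes), 2 TT 1.49 (0.82 to 2.07 over 18) and 3 TT 1.89 (1.21 to 2.23 over 6). In unadjusted intensity p53 showed no clear rise from 1 to 2 TT. Its listed strand had 1.30 to 1.44 with 1 and 1.17 to 1.47 with 2, and its opposite strand 0.94 to 1.05 and 0.82 to 1.07. Each of these probes was above its unfilled backbone. Both strands of a backbone shared 1 unfilled sequence, so differences on a backbone are not separate comparisons, here and for the other types. On the MITF backbone printed above, with TT on the listed strand, the unfilled probe had UV spots from 570 to 4293 (median 2147.5). TT at the middle position gave 5318 to 11626 (median 8823), TT at the middle and last position 8288 to 11588 (9993.5) and TT at all 3 positions 10347 to 17163 (14752.5). All spots with the middle TT thus lay above those of the unfilled probe, while 1 and 2 TT overlapped. The non-UV medians of these 4 probes were 27, 33, 35 and 39.5. On the listed strand of the TBP backbone TT at all 3 positions gave 22435, the highest UV median among the library sequences. Its non-UV median was 76 against 29 unfilled. On the listed strand of the p53 backbone the values were 18210.5 and 39 against 28. On the opposite strand TT at all 3 positions gave less, 6076.5 for MITF, 8510 for TBP and 8589 for p53. On MITF probes with 2 TT were higher, at 7172 and 6465. After adjustment this was not so. The MITF probe with 3 TT then lay 1.48 above its unfilled backbone, and those with 2 TT 1.22, 1.00 and 1.37.

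The other types gave smaller steps on these backbones. TC at 1, 2 and 3 positions added 0.34, 0.57 and 0.85, and after adjustment 0.57, 0.72 and 0.87. With 1 TC the count of higher probes was 12 of 18, and 18 of 18 adjusted. CT gave -0.0025, 0.38 and 0.64, and the first of these was 0.20 after adjustment, higher in 17 of 18 probes in place of 9. CC changed the value by -0.32, -0.28 and -0.32, and by -0.15, -0.26 and -0.22 after adjustment, and none of 6 probes with 3 CC was above its backbone (2 of 6 after adjustment). With 1 TT the middle position had a median of 1.44, the last 1.29 and the first 0.96, over 6 sets each, and after adjustment 1.53, 1.10 and 0.99. Ranges overlapped between positions. When all 3 positions were filled with any types, the median centred difference was 0.70 without TT (162 probes), 1.39 with 1 TT (162), 1.74 with 2 (54) and 1.87 with 3 (6). Probes with 1 and 3 dipyrimidines had 59 bases and those with 0 and 2 had 60. In a regression with length as a term, 59 bases went with 0.10 more.

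Backbones differed before any dipyrimidine was added. Among the 13 libraries with reference sequences, 16 each, the median reference difference ran from 6.07 in TBP_E60 to 6.96 in p53_E60. By backbone the reference had a centred median of -0.27 for TBP (48 sequences), -0.01 for MITF (64) and 0.27 for p53 (48), with UV medians of 1958.25, 2364.75 and 2805.75. The quartiles of TBP (-0.52 and -0.14) and p53 (0.09 and 0.52) did not overlap, and after adjustment the medians were -0.19, -0.04 and 0.36. TT stood out on every backbone. Sequences with TT exceeded those with other dipyrimidines only in all 21 libraries, by 0.65 (p53_60) to 1.22 (MITF_Ex_ebox_59). The smallest gaps belonged to p53 libraries, whose sequences without TT were already 0.43 to 0.72 above the reference.

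The non-UV array was nearly flat, with a median of 30, and few sequences stood out. Above an intensity of 60 were 39 sequences, of which 37 held TT (94.9%, against 44.3% of all sequences). The regression gave TT 0.15 per step there and CT 0.06. Above 90 were MITF_ebox_60_GTAA, which holds a TT on the opposite strand, and MITF_ebox_60_GTCA and MITF_ebox_60_GTGA, the sole sequences above 60 without TT. Their non-UV medians were 328 (251 to 425), 229.5 (157 to 350) and 96.5 (73 to 110). MITF_ebox_60_GTAC, which differs from the first in the last varied base, had 27.5 (23 to 41), and no spot of it reached those of the other 3. The next sequence, p53_E_mut_60_TTTA, had 88.5 (72 to 100), with 18468 on the UV array.

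These 3 probes had the lowest centred differences of all, at -2.70, -2.62 and -1.78, and were also the only ones at least 1 below the reference after adjustment. Their UV medians of 4182, 3089.5 and 2332.5 were not low, at or near the reference level of 2340.5 or above it, so the low difference came from the non-UV side. With the same 4 varied bases, sequences in the other MITF libraries compared did not exceed 52, although some lay above the reference range of 25.5 to 36. The probe with GTAA had 45.5 in the MITF_sebox library, 42.5 in the NP_MITF_ebox library, which has another 3′ stretch, and 30.5 in the 59-base MITF_ebox library. The probe with GTCA had 39, 52 and 28.5 in the same libraries, and that with GTGA 31 and 30.5 in the first 2 of them. The next lowest, TBP_MUT_E60_AGTG at -1.50 and TBP_60_TACG at -1.28, had ordinary non-UV values of 34 and 28.5 and were -0.20 and -0.40 after adjustment, so they left the low end.

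At the top stood probes rich in TT. TBP_60_ATTT had the highest centred difference, 2.52, with UV spots from 13832 to 29418 (median 20402.5) and a non-UV median of 43. Next came p53_P6_TT&P12_TT&P18_TT at 2.50, with spots from 11989 to 21944. TBP_59_ATTT had 2.30 and p53_E_mut_60_AAAA, a run of 5 T on the opposite strand, 2.23. MITF_P6_CC&P12_TT&P18_TT also had 2.23, with 10894 on the UV array and 28 on the non-UV array, and 1.77 after adjustment. The others were 2.45, 2.30, 2.30 and 1.82 after adjustment.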

How the data were processed

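Fluorescence intensity per spot was measured on 1 irradiated and 1 non-irradiated array, per the labels. The authors deposited the intensity on a linear scale, without flagged spots, a signal column with the median of the surrounding area, and an adjusted intensity, per the file headers. The adjusted values equalled intensity times array median over local median. The Cy3 column held 1 throughout, so nothing was corrected for DNA amount. The scanner and its software were not stated. Each array held 62976 spots, 61260 with a sequence, at 10 spots per name. No library spot was flagged or reached 65535 on either array.

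Spots of a sequence were summarised by their median, in log2, from the unadjusted column (Python 3.11.15, numpy 2.4.6, pandas 2.3.3). Regression was by least squares, and its code was run on simulated spots. Those were made with step effects that add up, so the run does not test whether effects add up in these data. Spots of 1 array share a hybridisation and are not replicates of a condition. Intervals are quartiles or ranges, and precision is limited by there being 1 array per condition. The members, lists and rules were chosen with earlier results of these data known. Named sequences were the 5 highest and 5 lowest among those with at least 5 spots, probes with TT at 0 to 3 positions, and pairs or sets nearest the median. Pairs with 0 and 1 dipyrimidine, the planned comparison, do not exist within a library (0 found), because length fixes odd or even counts. Pairs with 1 dipyrimidine of another type, and sets of 4 types or 8 runs at 1 place, were added after the data were seen. Arrays of the other antibody were not used here.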

Additional observations from a re-analysis of the deposited data

Results flagged for a closer look

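Spots without a listed sequence took no part in the comparisons, and all kinds of them were brighter on the UV array than on the non-UV array. The 397 spots with no name had a UV median of 2903 against 28. Control spots of the array maker, whose sequences are not listed, were far brighter. The DarkCorner spots had a UV median of 56357 against 79, the ETG spots 25602 against 52, the DCP spots 28927.5 against 65.5, and a further positive control family of 350 spots 28563.5 against 68. The ERCC spots, with 209 on the non-UV array, the bright corner spots, with 543, and a set of 308 replicated control spots, with 58, had a UV median of 65535, the ceiling of the scale, so that these medians are lower bounds.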

How the results depend on the processing

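Each condition is 1 array, so no setting tests replication. No paired analysis was possible because each group held 1 array and the labels carry no replicate numbers. Of 301 values under other settings, 85 moved, which for values other than counts means by more than their SD over single spots. In all, 7 values of 4 results had the opposite sign, the largest of them reported at 0.09: CT at 1 position (4 settings), ACCA, CC listed minus opposite, and the CT effect per step. Leaving out 1 spot at a time turned the sign of 5 results near 0, namely ACCA, CC listed minus opposite, GCTG, CT at 1 position and the 3′ flank of CC. The cause of each shift was not tested.

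With adjusted intensity, 3 sequences were at least 2-fold below the reference, single TT had 1.35 and single CT 0.29, the effects per step were 0.60 for TT, 0.21 for TC and -0.13 for CC, TT over CT in pairs was 1.02, TT at 3 positions 2.09, a run of 5 T 1.81 and the non-UV level 4.94 in log2. With the mean of log2 over spots, the difference was 6.99 over all sequences and 6.22 in the reference, 4 sequences were 2-fold below it, single TC had 0.52, the effects per step were 0.63 for TT, 0.21 for TC and -0.14 for CC, TT at 3 positions 2.13 and the non-UV level 4.94. With a pseudocount of 16 the difference was 6.57 overall and 5.74 in the reference, the effects per step 0.63 for TT and 0.11 for CT, TT at 3 positions 2.05, a run of 5 T 2.14 and the non-UV level 5.52.

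On the UV array alone 13 sequences were 2-fold below the reference, counts of 2, 3, 4 and 5 dipyrimidines had 0.73, 1.22, 1.06 and 1.48, single TT 1.42, the effects per step were 0.74 for TT and 0.15 for CT, TT over CT was 1.31, TT at 3 positions 2.26, listed minus opposite TT 0.54 and a run of 5 T 2.36. A threshold of 0.5 gave 3525 above and 157 below, and 1.5 gave 686 and 4. With dipyrimidines counted on the listed strand alone, the effect of CT was -6.1e-05 in place of 0.09, TC 0.12 and CC -0.22, and counts of 1, 2 and 4 had 0.70, 0.86 and 1.01. With each library centred on its own median TT had 0.57, CT 0.12 and CC -0.084. Probes of 59 bases gave TT 0.63, TC 0.25 and CC -0.090, and probes of 60 bases TT 0.54 and CC -0.13. In the regression with length TT had 0.58 and TC 0.25 per step, and without length 0.58 and 0.24, so length hardly changed them. They are among the moved values only because they were set against medians of 1.25 and 0.64 for single types, an unlike measure. Leaving out 1 spot at a time gave 27 to 37 sequences 2-fold below the reference, and 0.93 to 1.00 for 4 dipyrimidines.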
